A study of Mus musculus with 12 samples.

Results

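The cytosolic ribosomal protein genes encode the proteins of the ribosome that translates mRNA in the cytoplasm. They were picked by name alone. A probe set was taken if the platform's gene table gives it a single symbol and that symbol is Rpl or Rps plus a number, with or without a closing a, x, y or l, or is one of Rplp0, Rplp1, Rplp2 and Rpsa. Kinases of the Rps6k family and pseudogenes were left out. The rule found 99 of the 45037 probe sets that are not controls, and these stand for 45 of 18194 named genes: 44 probe sets of 24 large subunit genes and 55 probe sets of 21 small subunit genes. A further 110 probe sets name a ribosomal protein together with another gene and are not members. For 28 ribosomal protein genes, among them Rpl3, Rpl5, Rpl10, Rplp1, Rps12 and Rps23, such shared probe sets were the only ones on the array. 1 probe set, of Rps4l, was left out as a pseudogene.

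RNA came from side population cells, a rare fraction sorted from digested tissue because it exports the dye Hoechst. The first group was isolated from mouse extraocular muscle (EOM, the muscles that move the eye) and the second from the tibialis anterior, a muscle of the lower leg (TA). Each group held 6 independently isolated preparations, with 1 Affymetrix array per preparation after linear amplification of the RNA. The labels name no genotype or treatment for either group, and strain, sex, age and the number of animals behind a preparation are not given in the sources used here. Arrays are named by group and by the number in their title (0, 1, 2, 3, 5 and 6 in each group).

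A cytosolic ribosome joins a small subunit, which reads the mRNA, to a large subunit, which forms the peptide bond, and each holds 1 copy of nearly all of its proteins. Their mRNAs are among the most abundant in growing cells. Many of these mRNAs begin with a C and a run of pyrimidines, the terminal oligopyrimidine (TOP) tract, through which the mTORC1 pathway and the protein Larp1 control their translation.

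The annotated start sites were searched for this tract and for 2 other short motifs. RefSeq promoter sequences (GRCm38.p6) were matched for 40 of the 45 genes, with 48 annotated starts. Rpl7, Rpl8, Rps14, Rps20 and Rps29 had no entry. The windows below run from 15 bases before to 15 bases after an annotated start, on the strand of the gene. They show the 3 genes with a probe set past the threshold of the comparison below (Rps26, Rps24 and Rpl41), and Rps6 and Rpl38 as examples of a tract that covers the annotated start. Capitals mark a C that opens a run of at least 5 pyrimidines beginning between 5 bases before and 10 bases after the start. Rps26 lies at chr10:128626492-128626521 on the minus strand, Rps24 at chr14:24490663-24490692 on the plus strand, Rpl41 at chr10:128549154-128549183 on the minus strand, Rps6 at chr4:86857353-86857382 on the minus strand and Rpl38 at chr11:114668565-114668594 on the plus strand.
Rps26: gtcgggcaagccgccggatCCTCTTTCgag
Rps24: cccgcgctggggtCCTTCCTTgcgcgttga
Rpl41: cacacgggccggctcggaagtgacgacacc
Rps6: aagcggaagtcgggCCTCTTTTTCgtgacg
Rpl38: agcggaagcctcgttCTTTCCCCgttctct

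A C followed by 4 pyrimidines stood exactly at an annotated start in 8 of the 40 genes (20.0%), against 813 of the 27025 genes of the table (3.01%). With a start allowed from 5 bases before to 10 bases after, 23 of 40 genes (57.5%) held one, against 27.7% of the genes of the table. The 6 bases CGGAAG, the core of the sites bound by ETS factors, were found on either strand of the 300 bases from 250 before to 50 after the start in 29 of the 40 genes (72.5%), against 18.8% of the genes of the table. The letters TATAAA, on the strand of the gene and between 40 and 20 bases before the start, were found in 0 of the 40 genes, against 2.25% of the table. The median GC content of these promoters was 57.2%, against 52.7% over the table. These are matches of letters at annotated starts. The 8 genes with a tract exactly at the start had a median log2 fold change of 0.02 between EOM and TA (from -0.25 to 0.16), and 30 other tested genes had one of 0.01.

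Before the results, 3 arrays have to be set apart. Over all probe sets, EOM 1 had a median signal of 87.2, TA 3 one of 69.5 and TA 5 one of 63.1, while the other 9 arrays had 31.1 to 43.4. The hybridization controls, spiked into every array in set amounts, averaged 27306, 18821 and 12729 on those arrays and at most 7554 on the others. The 3' to 5' ratio of the beta-actin control, which grows as RNA shortens, ran from 8.92 to 104 in EOM and from 5.27 to 165 in TA. That of the Gapdh control ran from 9.88 to 24.5 in EOM, lowest on EOM 1, and from 4.92 to 34.5 in TA. TA 6 held the lowest of both ratios. The groups also differed in cell type markers, taken from lists chosen with earlier results of these data known. Of 10 endothelial markers 8 were lower in EOM, and their summed signal was 1507 to 2740 in EOM, against 10677 to 34248 in TA. Of 8 pericyte and smooth muscle markers 7 were lower, with sums of 3261 to 5909 in EOM and 15361 to 31204 in TA, and 7 of 7 leukocyte markers were lower, with sums of 385.5 to 4299.9 in EOM and 4496 to 12069.9 in TA. Of 8 fibroblast markers 5 were higher (Pi16, Dpt, Dpep1, Pdgfra and Mfap5), with sums of 89571 to 162445 in EOM and 37490.2 to 60268 in TA. Lum, Dcn and Col1a1, at log2 fold changes of 1.54, 0.16 and -0.84, did not pass the threshold of the comparison below. Col1a1 averaged 3298 in EOM and 6660 in TA. Of 8 muscle fibre markers 1 (Acta1) was lower and 4 were under the level filter, and the satellite cell markers Pax7 and Myf5 were under it too. Of the 3 dye transporters that mark a side population, Abcg2 and Abcb1b were lower in EOM. In preparations of mixed cells, fewer cells of a type and less RNA per cell cannot be told apart, and the part of these differences in the values below was not tested.

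Ribosomal protein genes differed little between EOM and TA. Of 43 tested large subunit probe sets 1 was lower in EOM and 0 were higher, and of 46 tested small subunit probe sets 1 was higher and 1 was lower, with limma and a Benjamini-Hochberg adjusted p-value under 0.05. Over all 27022 tested probe sets 8.23% passed this threshold, 3.2% higher and 5.03% lower in EOM. The 3 that passed were Rps26, higher in EOM, and Rps24 and Rpl41, lower in EOM. The other 10 members fell under the filter on low signal and were not tested: 1 in the large subunit, the only probe set of Rpl3l, and 9 in the small subunit, the only one of Rps16 among them. At an unadjusted p-value under 0.05, 14 of the 89 tested members passed (3 higher, 11 lower), and 19.7% of all tested probe sets did. The 14 were 10 of 43 in the large subunit (2 higher, 8 lower) and 4 of 46 in the small subunit (1 higher, 3 lower). Over all 27022 tested probe sets 2368 were higher and 2950 lower at this level.

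The fold changes lay close to 0. The median log2 fold change (EOM minus TA) was -0.11 in the large subunit (range -1.62 to 1.00) and -0.01 in the small subunit (range -0.84 to 0.86), against -0.03 over all tested probe sets. With each array centred on its own median, every fold change shifted up by 0.09, which left the large subunit at -0.02 and turned the sign of the small subunit to 0.08. Within 0.5 of 0 lay 69.8% of the large subunit and 84.8% of the small subunit probe sets. The same share was 64.8% over all tested probe sets and 55.3% in the probe sets with a mean signal above the 90th percentile, to which 70 of the 99 members belong. The median standard error of a fold change was 0.32 for the members and 0.37 for all tested probe sets. The signals of the 6 EOM and the 6 TA arrays did not overlap for 4 of the 89 tested members, against a background of 5.43%. EOM lay above TA in 1 of them and below in 3, where the backgrounds were 1.9% and 3.53%. All 4 were among the 70 members above the 90th percentile of mean signal, where 512 of all 4504 probe sets did not overlap.

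**Figure D1:**
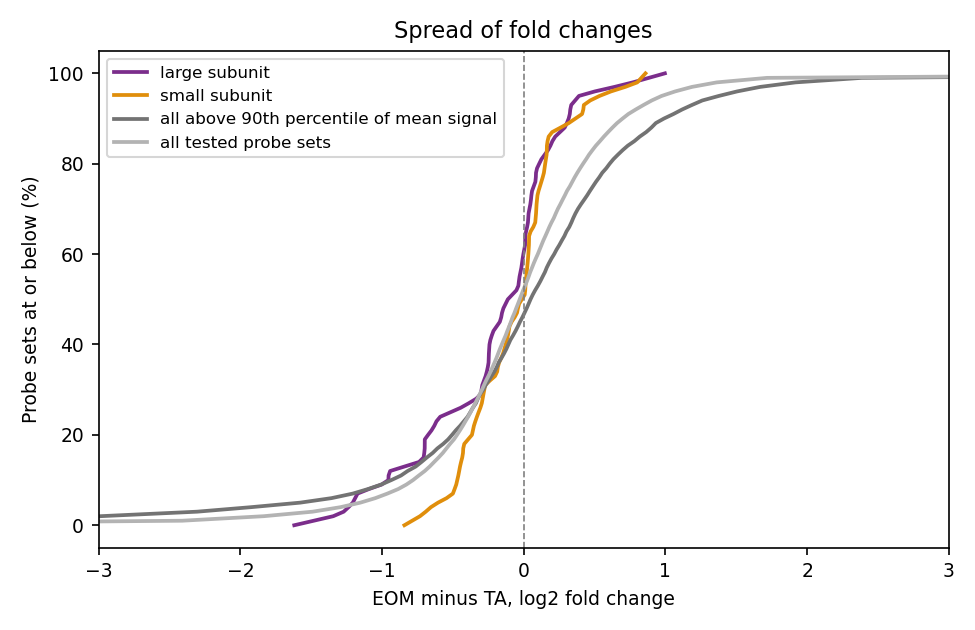
Cumulative share of probe sets (y axis, %) at or below a log2 fold change of EOM minus TA (x axis) for the large subunit, the small subunit, the probe sets above the 90th percentile of mean signal and all tested probe sets. Both subunit curves cross the middle near 0, and 69.8% and 84.8% of their probe sets lie within 0.5 of it, against 64.8% of all tested probe sets.

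As a level, the median signal of the large subunit probe sets averaged 1685 ± 195 over EOM arrays and 2273 ± 328 over TA arrays (SD, n = 6 each). That of the small subunit probe sets averaged 2348 ± 453 over EOM arrays and 2495 ± 848 over TA arrays. The large subunit medians ran from 1450.3 to 1997 in EOM and from 1853 to 2786 in TA. They overlapped only through EOM 2, which lay above TA 0 alone. Every other EOM array, at 1820 or less, lay below all TA arrays. As log2 values these medians averaged 10.72 ± 0.16 in EOM and 11.15 ± 0.21 in TA. This gap is wider than the median fold change of the same probe sets, -0.11, and was not tested. Of the small subunit medians, that of TA 6 (4149.8) stood above all others. The small subunit median exceeded the large one by 0.45 ± 0.22 log2 units on EOM arrays and by 0.08 ± 0.37 on TA arrays (SD, n = 6 each). It ran from 0.14 to 0.81 in EOM and from -0.37 to 0.57 in TA, and only in TA 2 and TA 5 was the small subunit median below the large one. Together the members gave 3.10% to 5.39% of the summed signal of an EOM array and 3.20% to 5.67% of a TA array, with the highest shares on EOM 1 and TA 3.

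Rps26 was the 1 member that was higher in EOM. It encodes a small subunit protein that lies along the mRNA near the exit of its channel, and its mutation in people causes Diamond-Blackfan anaemia. Its only member probe set had signals of 4938 (lowest), 6149.8 (median) and 9768 (highest) in EOM, against 2635, 3559 and 4401 in TA. All 6 EOM arrays lay above all 6 TA arrays, with EOM 1 the highest and TA 5 the lowest. The means were 6579 ± 1785 in EOM and 3565 ± 605 in TA (SD, n = 6 each), and the log2 fold change was 0.86 ± 0.24 (moderated SE, limma adjusted p = 0.0338). The call remained when EOM 1, EOM 3, EOM 6 or TA 3 was left out (adjusted p from 0.0146 to 0.0475) and was lost when any 1 of the other 8 arrays was left out (from 0.0509 to 0.086), with the direction the same each time. It was also lost without the low-signal filter and without the intensity trend of the test (adjusted p = 0.07995 and 0.05098).

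Rps24 was the small subunit member lower in EOM. Its protein helps to process the ribosomal RNA of the small subunit, its mutation also causes Diamond-Blackfan anaemia, and its transcript is known for alternative splicing near the 3' end. The brightest probe set had signals of 2338, 2919.9 and 3865 (lowest, median and highest) in EOM, against 4117, 5193 and 7905 in TA. The highest EOM array, EOM 5, was below the lowest TA array, TA 1. The means were 2981 ± 498 in EOM and 5456 ± 1491 in TA (SD, n = 6 each), with a log2 fold change of -0.84 ± 0.24 (limma adjusted p = 0.0365). Rps24 had 6 tested probe sets, and all 6 fold changes were negative, from -0.84 to -0.28. The ID of the brightest ends in x_at, the suffix of probe sets that may also match other transcripts. In a further one the signals were 728 to 1157 in EOM and 1218 to 1514 in TA, again without overlap, yet its adjusted p was 0.235. The probe set nearest to 0 depended on EOM 1, where it read 3.8, and without that array its fold change was 0.34. The call of the brightest probe set remained when EOM 1, EOM 5, TA 0, TA 1 or TA 6 was left out (adjusted p from 0.0127 to 0.0425) and was lost when any 1 of the other 7 was left out (from 0.0659 to 0.103). It was also lost with each array centred on its median, without the low-signal filter and without the intensity trend (adjusted p = 0.137, 0.07955 and 0.05655).

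Rpl41 was the large subunit member lower in EOM. It encodes the shortest protein of the ribosome, a basic peptide at the interface of the subunits. It had 4 tested probe sets, all with negative fold changes, and 1 passed the threshold, whose ID also ends in x_at. That probe set had signals of 614, 837 and 3134 (lowest, median and highest) in EOM, against 1599.7, 2334 and 4179 in TA. On 5 EOM arrays it was at or below 1243, under every TA array, and EOM 1 was the exception. The means were 1221 ± 968 in EOM and 2647 ± 985 in TA (SD, n = 6 each), and the log2 fold change was -1.29 ± 0.37 (limma adjusted p = 0.0365). The call remained when EOM 1 or TA 6 was left out (adjusted p = 0.000258 and 0.0328) and was lost when any 1 of the other 10 was left out (from 0.0502 to 0.101). It was also lost with quantile normalization and without the intensity trend (adjusted p = 0.05535 and 0.05504).

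The other probe sets of Rpl41 missed the threshold. In one of them the groups did not overlap, with 592 to 982 in EOM and 1130.2 to 7910.1 in TA, and the log2 fold change was -1.21 (adjusted p = 0.0631). TA 6 held the highest of these values, and the next TA array was at 1834. Another, the only one of the gene whose ID carries no suffix letter, had a log2 fold change of -1.17 (adjusted p = 0.0679), with EOM 1 at 2188 and the other EOM arrays at 351 to 560.4. The last, with the highest mean log2 signal, had a log2 fold change of -0.64 (adjusted p = 0.154).

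**Figure D2:**
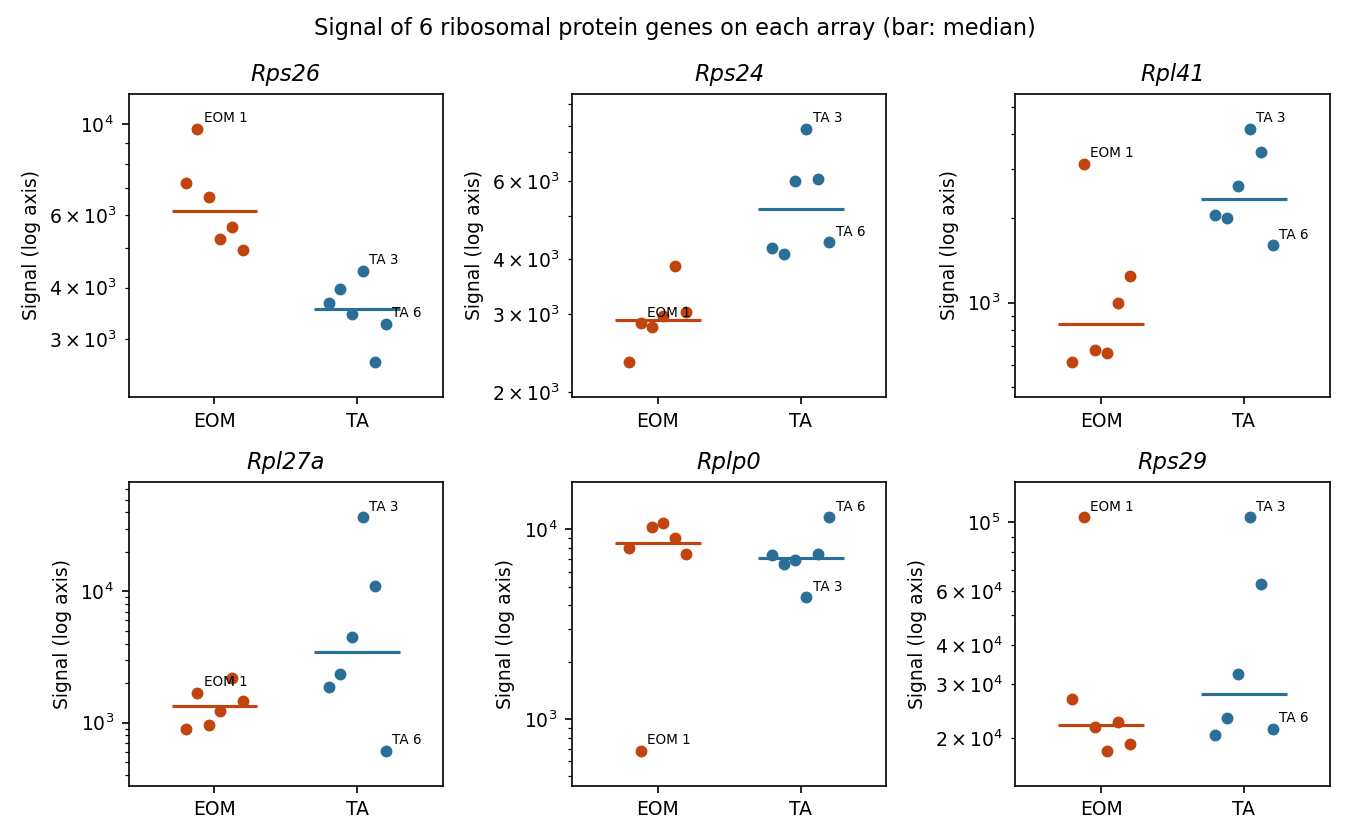
Signal (y axis, log scale) of 1 probe set of Rps26, Rps24, Rpl41, Rpl27a, Rplp0 and Rps29 on each array, with the 6 EOM arrays left of the 6 TA arrays; points are arrays, bars are medians, and EOM 1, TA 3 and TA 6 are labelled. The groups do not overlap for Rps26 and Rps24, EOM 1 lies among the TA arrays for Rpl41, and single arrays stand far from the rest for Rpl27a, Rplp0 and Rps29.

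Several other large subunit genes had fold changes of similar size that did not pass. Rpl37, a zinc-binding protein of the large subunit, had signals of 528, 989 and 1776 (lowest, median and highest) in EOM and 273, 455 and 636 in TA. EOM 3 and EOM 6 overlapped the TA arrays, the other EOM arrays lay above them, and the log2 fold change was 1.00 ± 0.33 (adjusted p = 0.0776). Rpl37a, another zinc-binding protein, had 1460.1, 1869 and 5275 in EOM and 2218, 3999 and 8759 in TA in its brightest probe set, with a log2 fold change of -0.95 ± 0.36 (adjusted p = 0.126). Its 2 other probe sets were at -0.70 and -0.15. Rpl12, which forms the base of the stalk with Rplp0, had 59.2, 74.8 and 164 in EOM and 92.8, 156 and 221 in TA, with a log2 fold change of -0.70 ± 0.30 (adjusted p = 0.188). Shared probe sets, which also name another gene and are not members, were at 0.15 and -0.01 for Rpl12. Those of Rpl37 were at -0.32, 0.26 and 0.34, and that of Rpl37a was at -0.11.

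Rpl27a had the lowest fold change of all members, -1.62 ± 0.68 on the log2 scale (adjusted p = 0.182), and a wide spread in TA. Its brighter probe set had 887, 1342 and 2187 (lowest, median and highest) in EOM and 611, 3435 and 36872 in TA. TA 3 was the highest array, followed by TA 5 at 10945, while TA 6 lay below every EOM array. Without TA 3 the fold change was -0.99, and without TA 6 it was -2.16 and passed the threshold (adjusted p = 0.0343). A probe set that names Rpl27a together with other genes, and is not a member, was at -0.37. Rpl22, which also binds other RNAs and is needed for the development of some T cells, had 3 probe sets at 0.08, 0.21 and 0.73, and the last had 287, 1052 and 1279 in EOM and 315, 533 and 749 in TA (adjusted p = 0.243). EOM 1 held its lowest value, and the other 5 EOM arrays, at 928 or more, lay above all TA arrays.

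The remaining genes near the top of the large subunit were Rpl7a at 0.40 ± 0.29, Rpl13a at 0.32 ± 0.35 and Rpl6 at 0.12 ± 0.29 (log2 fold changes ± SE, limma adjusted p = 0.515, 0.71 and 0.893). Rpl13a, which is often used as a reference gene and is known in human cells for a second role in silencing mRNAs of inflammation, was also 1 of the 3 brightest of its subunit. Its signals were 18674, 21192 and 72727 (lowest, median and highest) in EOM and 15575, 18519 and 30509 in TA. In the small subunit the genes near the top were Rps7 at 0.43 ± 0.27, Rps25 at 0.42 ± 0.32 and Rps9 at 0.18 ± 0.38 (adjusted p = 0.443, 0.549 and 0.878). Rps25 takes part in initiation at viral internal ribosome entry sites. Probe sets that name Rps25 or Rps7 together with another gene, and are not members, were at -0.36 and -0.38. Those of Rpl13a were at 0.24 and 0.85. Near the bottom of the small subunit were Rps29 at -0.37 ± 0.47, Rps27l at -0.30 ± 0.21 and Rps20 at -0.27 ± 0.39 (adjusted p = 0.775, 0.498 and 0.801). Rps29 was the brightest member, with 18257, 22159 and 103753 in EOM and 20569, 27783 and 104087 in TA, and its highest values came from EOM 1 and TA 3.

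**Figure D3:**
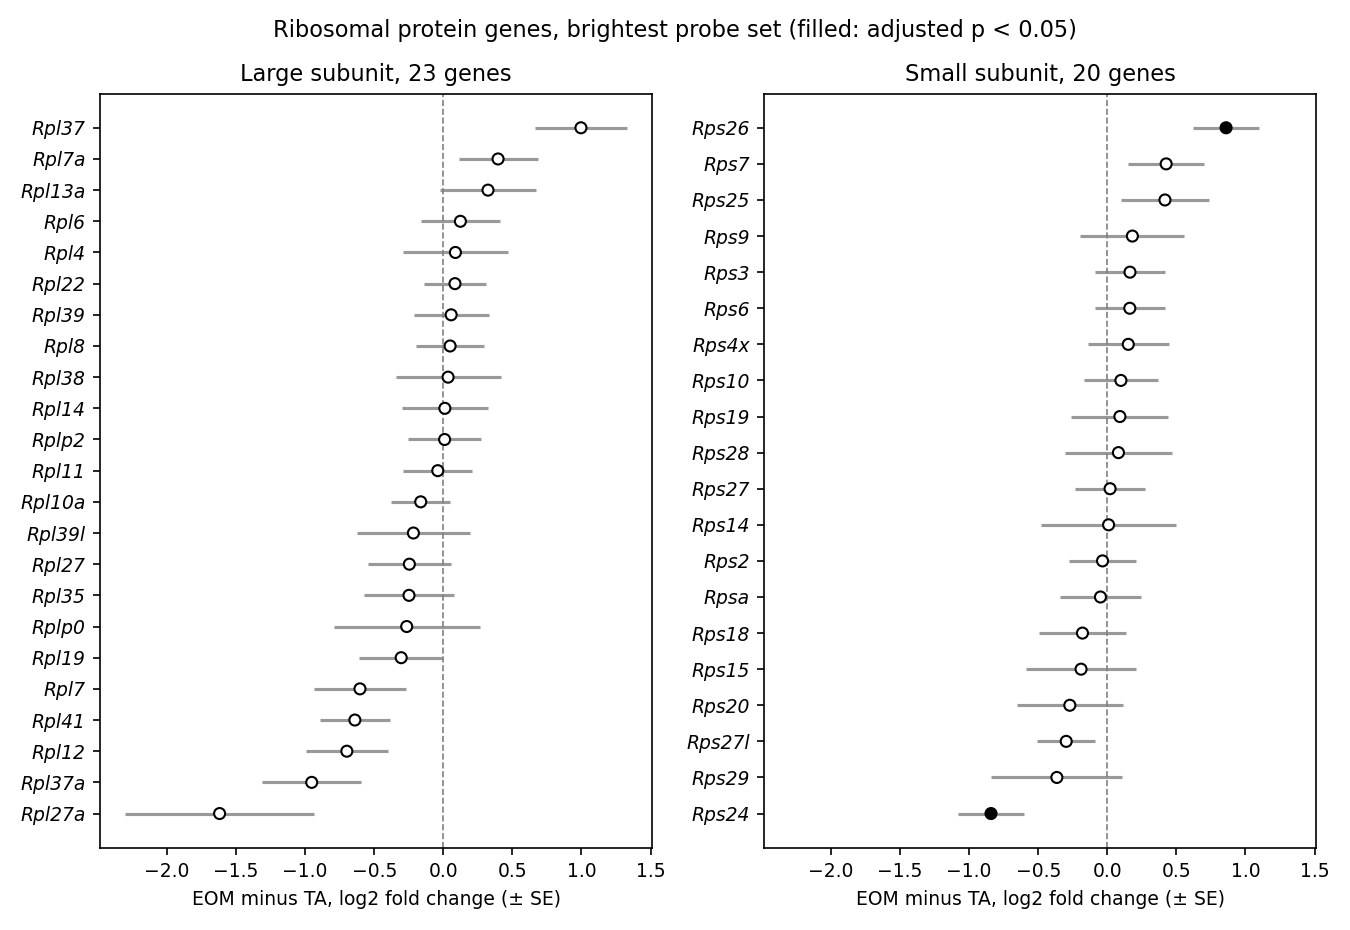
Log2 fold change of EOM minus TA (x axis, bars show the moderated SE) of each tested gene by its brightest probe set, for 23 large subunit genes (left) and 20 small subunit genes (right), sorted by value; filled points passed an adjusted p-value under 0.05. Rps26 and Rps24 are the filled points, and Rpl37 at 1.00 and Rpl27a at -1.62 are the open points farthest from 0.

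Beside Rpl12, the stalk genes Rplp0 and Rplp2 and 3 genes with regulatory roles were measured, and none of these 5 passed the threshold. Rplp0, the base of the stalk that recruits translation factors, had signals of 683, 8494 and 10875 (lowest, median and highest) in EOM and 4418, 7088 and 11628 in TA. EOM 1 held the lowest value, and the other 5 EOM arrays were at 7464 or more. The log2 fold change was -0.26 ± 0.53 (limma adjusted p = 0.871), and without EOM 1 it was 0.35 (adjusted p = 0.345). Rplp2, the partner on the stalk, was at 0.01 ± 0.27 (adjusted p = 0.992) with means of 6422 ± 841 in EOM and 6694 ± 2492 in TA. Rpl11, which binds Mdm2 when ribosome assembly fails, was at -0.04 ± 0.25 (adjusted p = 0.967). Rps6, the small subunit protein phosphorylated by the S6 kinases, was at 0.16 ± 0.26 (adjusted p = 0.827), and Rpsa, also described as a laminin receptor, was at -0.05 ± 0.30 (adjusted p = 0.966). The standard errors of these genes, 0.25 to 0.53, set how small a difference could have been seen.

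Paralogues that can take the place of a ribosomal protein gave no call. Rpl3l, known for replacing Rpl3 in striated muscle, was under the filter, at 5.10 ± 5.67 on EOM arrays and 6.83 ± 5.61 on TA arrays (SD, n = 6 each). Rpl39l, known from the testis, had 93.3, 141 and 354 (lowest, median and highest) in EOM and 72.0, 163 and 655 in TA, at a log2 fold change of -0.22 ± 0.41 (adjusted p = 0.864), and Rpl39 was at 0.06 ± 0.27 (adjusted p = 0.955). Rps27l, a target of p53, had 237, 255 and 289.7 in EOM and 258, 332 and 363 in TA in its brightest probe set. Its 3 probe sets were all negative, from -0.50 to -0.30, and Rps27 was at 0.02 ± 0.25 (adjusted p = 0.983). A probe set that names Rps27 together with another gene, and is not a member, was at -0.63 and did not pass. Rps4x, the X-linked gene whose human homologue has a copy on the Y chromosome, was at 0.15 ± 0.29 (adjusted p = 0.866).

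Several members share a gene, and their estimates show how far 1 probe set can be trusted. Of 43 tested genes 20 had more than 1 tested probe set. In 14 of these all probe sets had the same sign, and in 6 they had both. The median difference between the highest and the lowest log2 fold change of a gene was 0.48. The 6 probe sets of Rps10 ran from 0.01 to 0.14, and the 3 of Rps28 from 0.08 to 0.12. Without EOM 1 those of Rps10 ran from -0.15 to 0.40 and those of Rps28 from -0.28 to -0.21. Rps9 was the only gene whose probe sets differed by more than 1, from -0.48 to 0.79. The probe set at the top read 111 on EOM 1, and TA 3 and TA 5 gave 146 and 221, against 719 to 2654 on the other 9 arrays, while the brightest read 40284 on EOM 1 and 21299.8 on TA 3 and at most 12817 elsewhere. Among the 38 tested members whose ID ends in x_at, which the array's makers could not keep from matching other transcripts, the median log2 fold change was -0.24. It was -0.13 among the 22 with no suffix letter, 0.06 among the 26 ending in a_at and 0.73 among the 3 ending in s_at.

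**Figure D4:**
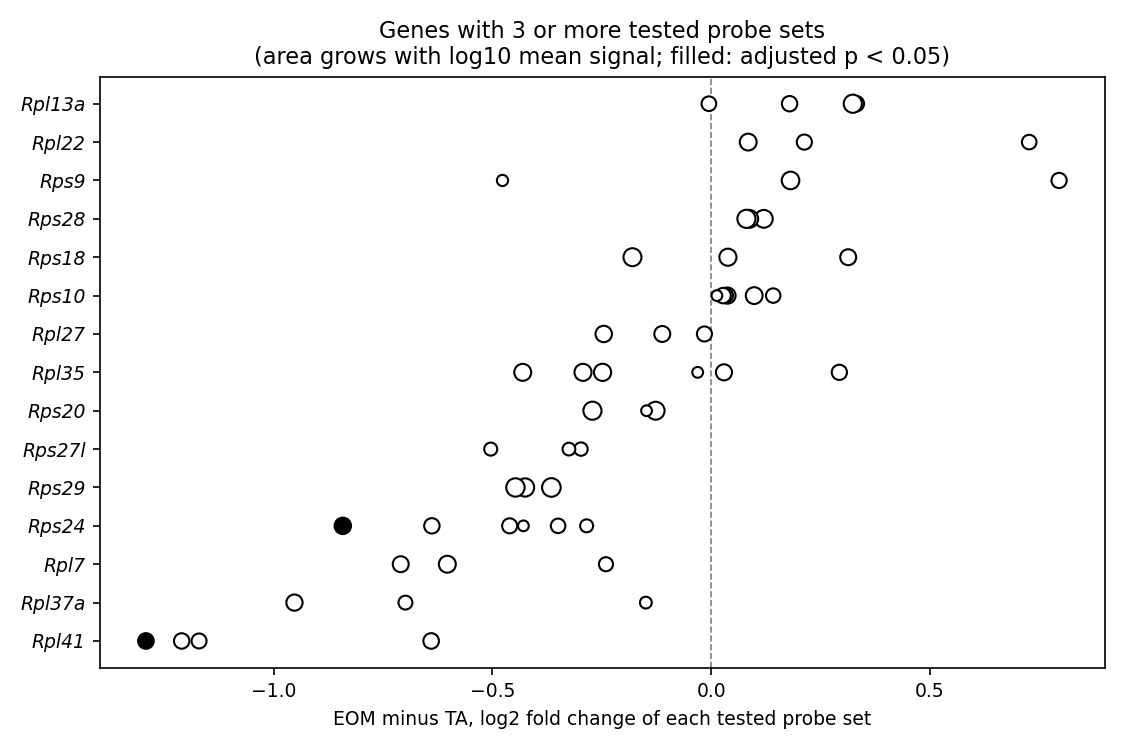
Log2 fold change of EOM minus TA (x axis) of each tested probe set of the 15 genes with 3 or more; the area of a point grows with the log10 of its mean signal and filled points passed an adjusted p-value under 0.05. All probe sets of Rpl41 (-1.29 to -0.64) and Rps24 (-0.84 to -0.28) are negative, and those of Rps9 spread from -0.48 to 0.79.

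The spread between arrays of a group was large beside the differences between groups. The median SD within a group was 0.59 on the log2 scale over the tested members, against 0.64 over all tested probe sets and 0.56 over those above the 90th percentile of mean signal. On EOM 1, 50 of the 89 tested members lay more than 1 log2 unit from the other EOM arrays, 26 above and 24 below. TA 3 had 27 such members (22 above, 5 below), TA 6 had 23 and TA 5 had 12. All tested probe sets stood apart on these arrays as well: the median absolute difference was 1.11 for the members and 1.11 for all on EOM 1, 0.75 and 0.73 on TA 3, 0.54 and 0.48 on TA 6, and 0.40 and 0.55 on TA 5. The brightest members stood high on the arrays with a high median signal: in the brightest 30 the median difference from the rest of the group was 0.82 on EOM 1, 0.73 on TA 3 and, at TA 5, 0.35, and in the dimmest 30 it was 0.02, 0.21 and -0.11. On EOM 1 the members ending in x_at lay 0.82 above the other EOM arrays at the median and all other members lay -0.37 from them.

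**Figure D5:**
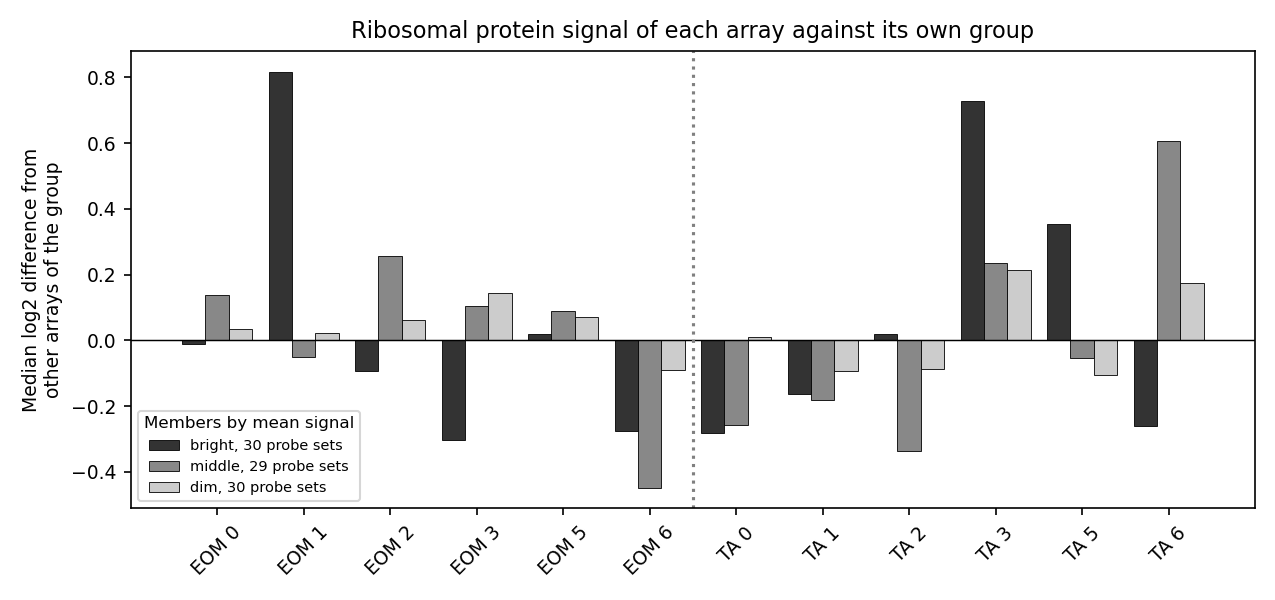
Median log2 difference (y axis) of the tested ribosomal protein probe sets on each array from the other arrays of its group, for the brightest 30, middle 29 and dimmest 30 by mean signal, EOM arrays left and TA arrays right. The brightest members stand 0.82 high on EOM 1 and 0.73 high on TA 3, and the middle ones 0.61 high on TA 6.

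Without EOM 1 more members passed the threshold, as did more probe sets in general. The fit called 10 of 89 members, 3 higher and 7 lower in EOM, which is 11.2% against 16.1% of all tested probe sets (7.88% higher and 8.26% lower). Higher were Rpl22 at 1.04, Rps26 at 0.74 and Rps7 at 0.63 (log2 fold changes, limma adjusted p = 0.00362, 0.0146 and 0.0333). Lower were 3 probe sets of Rpl41 at -1.61, -1.54 and -1.27, of which the highest adjusted p was 0.0275, and Rps24 at -0.83 (adjusted p = 0.0127). The other probe sets that were lower belonged to Rpl37a, at -1.21 and -0.81 (adjusted p = 0.00577 and 0.0323), and to Rpl12, at -0.87 (adjusted p = 0.0317). With TA 3 and TA 5 left out as well, 12 of 89 passed (4 higher, 8 lower), which is 13.5% against 17.3% of all tested probe sets (8.35% higher and 8.95% lower). That fit added Rps3 at 1.06 and Rps15 at -0.94 (adjusted p = 0.00304 and 0.0258) and kept the other 10. It still held TA 6, where 23 members lay more than 1 log2 unit from the other TA arrays.

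Genes around the ribosome were counted by gene, each by its brightest tested probe set, where 10.9% of all 13067 tested genes passed the threshold (4.05% higher and 6.81% lower in EOM). Of 14 tested genes whose mRNAs also carry a TOP tract, such as the elongation factors, 0 passed with limma (1 at an unadjusted p-value under 0.05), and their median log2 fold change was 0.01. Eef1a1, the elongation factor that brings aminoacyl-tRNA to the ribosome, averaged 20115 ± 8211 in EOM and 18552 ± 5981 in TA (SD, n = 6 each). Of 11 tested genes that control these mRNAs, among them Mtor, Larp1 and Rheb, 0 passed (1 unadjusted). The one farthest from 0, Eif4ebp1, a repressor of cap-dependent translation, averaged 360.1 ± 210.6 in EOM and 761 ± 424 in TA, at a log2 fold change of -1.05 (limma adjusted p = 0.0664).

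Of 44 tested genes of ribosome biogenesis 1 was higher, with a median log2 fold change of 0.32. At an unadjusted limma p-value under 0.05, 6 of the 44 passed, where 19.7% of all tested probe sets did. The higher gene was Nolc1, a nucleolar protein, which averaged 633 ± 225 in EOM and 309 ± 93.6 in TA (SD, n = 6 each), at 0.98 ± 0.27 (limma adjusted p = 0.033). Of 12 genes of RNA polymerase I, which makes the ribosomal RNA, 0 passed with limma (1 at an unadjusted p-value under 0.05). Of 73 mitochondrial ribosomal protein genes 3 were lower in EOM and 0 higher (14 passed unadjusted), with a median of -0.21. The 3 lower genes were Mrpl44 at -1.28, Mrpl46 at -1.18 and Mrpl43 at -0.87 (adjusted p = 0.0171, 0.0473 and 0.0473), which build the large subunit of the ribosome inside mitochondria. Among the 4 tested cytosolic ribosomal proteins whose names the rule does not reach (Fau, Rps3a1, Rpl22l1 and Rpl7l1), 0 passed with or without adjustment, with a median of 0.30.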

How the data were processed

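Per the labels, total RNA of 12 side population preparations (6 EOM, 6 TA) was amplified linearly, labelled with biotin and hybridized. The deposited table gives a linear signal intensity for each probe set and array, and the submitters' processing notes name MAS5, with no version. The mean of each column, trimmed by 2% at each end, was 150 in the deposited table, which is the authors' scaling. 0 columns were left unused and 0 pairs of columns were identical. Signals were used as log2(signal + 16), so fold changes understate those of dim genes. Of 45101 probe sets 64 were controls, and the 40% with the lowest mean log2 signal were not tested, leaving 27022. EOM was compared with TA by limma 3.58.1 in R 4.3.3 (lmFit, eBayes with an intensity trend, two-sided). P-values were adjusted by Benjamini-Hochberg over all tested probe sets, with a threshold of 0.05. The procedure was tried on simulated data, but no result of that trial is given here. The trial is therefore no evidence for the calls in these data, where single arrays stand apart from their group. SE is the moderated standard error. Where 1 probe set stands for a gene, it is the brightest by mean log2 signal. Arrays have no read depth, and 6 arrays per group limit the precision.

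The members and all lists were chosen with earlier results of these data known. Genes named in the text are those past the threshold, the 4 highest and 4 lowest fold changes and the 3 highest mean signals of each subunit, paralogue pairs, and genes with stalk or regulatory roles or with probe sets more than 1 apart. Rpl22 and Rps10, outside that rule, and the genes called without EOM 1 or without 3 arrays, were chosen after their values were seen. Names and promoters came from RefSeq tables (GRCm38.p6), read with Python 3.11.15 and pandas 2.3.3, and figures were drawn with matplotlib 3.10.9. The array's own genome build is not given in the sources used here. Protein properties that had been planned were not analysed here. Arrays of the same number in both groups did not deviate together (correlations from -0.317 to 0.157), and the main fit did not treat the numbers as pairs. The sources used here do not say whether they are pairs.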

Additional observations from a re-analysis of the deposited data

Results flagged for a closer look

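The arrays of each group were searched for a highest or lowest value that stood apart from the rest by Dixon's test, over 62 groups of 6 arrays. 18 did, where chance gives about 1 in 20 for a single group. The groups are not independent, since they were read on the same arrays and most of these values lie on EOM 1. The count therefore cannot be set against that rate. The test was run on the log scale, and the signals below are linear.

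On EOM 1, 10 of these values were high. Rpl13a was at 72727.3 (other EOM arrays 18673.5 to 24425.3), Rpl35 at 17946.2 (6095.3 to 7061.4), Rpl37a at 5275.3 (1460.1 to 2247.8) and Rpl39 at 277.1 (115 to 151.1). Rpl3l, under the low-signal filter, was at 16.4 (0.9 to 4.6). Of the small subunit, Rps20 was at 43468.5 (12901 to 18767.3), Rps28 at 72836.2 (13527.8 to 20959.3), Rps29 at 103753.3 (18256.6 to 26768.6), Rps9 at 40284.2 (8570.1 to 11172.5) and Rpsa at 27559.3 (11732.3 to 14153.9).

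On the same array 5 values were low. Rplp0 was at 683.1 (other EOM arrays 7463.7 to 10874.7), Rpl6 at 2625.8 (4765.3 to 6199.8), Rpl7a at 5500 (11418.6 to 12415.6), Rps4x at 7490.1 (16957.6 to 23171) and Rps7 at 5046.8 (10795.2 to 12866.5). EOM 1 also had the highest median signal over all probe sets of the 12 arrays, 87.2, and a 3' to 5' actin ratio of 104. Its 3' to 5' Gapdh ratio, 9.88, was the lowest of the EOM arrays. The part of these measures in these values was not tested.

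On TA 3, Rpl7a was low at 4357 (other TA arrays 7699.1 to 10456.2) and Rps28 was high at 39127.5 (14820.2 to 21156.5). The median small subunit signal was high on TA 6, at 4149.8, against 1832.85 to 2474.5 on the other TA arrays.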

How the results depend on the processing

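All fits used limma. Of all tested probe sets 2225 passed the threshold, and the count was 1445 (555 higher, 890 lower) with each array centred on its median, 5488 with array weights, 4675 without EOM 1, TA 3 and TA 5, and 1579 to 4361 with 1 array left out (4361 without EOM 1). In the large subunit 1 passed. The count was 0 with quantile normalization, without the intensity trend, with probe sets that carry no suffix letter and with 1 probe set per gene, where 12, 9, 3 and 5 passed unadjusted. It was 3 when the actin 3' to 5' ratio entered the model, 9 with array weights, 7 without EOM 1, TA 3 and TA 5, and 0 to 7 with 1 array left out (7 without EOM 1). Without TA 6 it was 2, and without any 1 of the other 10 arrays it was 0. In the small subunit 2 passed. The count was 0 without the low-signal filter, without the trend and with no suffix letter (5, 3 and 0 unadjusted), 1 with median centring, 4 with array weights, 5 without the same 3 arrays, and 0 to 3 with 1 array left out (0 without EOM 0, EOM 2, TA 2 or TA 5, 3 without EOM 1, otherwise 1).

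The replicate number as a fixed block gave 1632 calls over all probe sets and 0 in either subunit (8 large and 3 small unadjusted), and as a random block 1955 over all probe sets and 1 in each subunit, where Rps24 missed the threshold (adjusted p = 0.05093). 1 of 6 arrays correlated best with its own number. Whether preparations of the same number were isolated together is not given, and these correlations cannot decide it, since single arrays stood apart. Centring each array on the median of the ribosomal proteins themselves, chosen after seeing the data, raised every fold change by 0.25. The split of all calls then turned to 1241 higher and 785 lower, against 866 and 1359, the large subunit median to 0.14, and the calls to Rpl37 (1.25, adjusted p = 0.0254) and Rps26, 1 in each subunit. Rps24 and Rpl41 then missed the threshold (adjusted p = 0.341 and 0.175).

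With 1 array left out, the subunit medians stayed between -0.17 and -0.03 (large) and -0.15 and 0.03 (small). Over 25 settings, the 3 named estimates past the threshold (Rps26, Rps24 and 1 probe set of Rpl41) lost the call in 38 of 75 values and kept their direction in all 75. Of 625 values of the other 25 named estimates, 13 gained a call and 54 changed sign without one. Adding 110 shared probe sets, also chosen after seeing the data, left 1 large subunit call and made 3 in the small subunit. MAS5 signals hold no count, and with 6 arrays per group, 3 of the 12 standing apart in median signal, the precision is limited. The causes of these changes were not tested.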
